A study of Mus musculus with 3 samples.

Results

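Large gene deserts are the long stretches of autosome that contain no annotated gene. Here a gene desert was an interval of at least 1 Mb of known sequence that no gene or pseudogene of the RefSeq annotation touched (genome build mm10, GRCm38), and 12 such deserts were found on 9 autosomes, 14.3 Mb in all. After 100 kb had been removed at each end, the deserts were cut into 113 windows of 100 kb. All 113 held at least 100 methylation calls in each library (a call is 1 reading of 1 CpG as methylated or unmethylated), out of 23659 autosomal 100-kb windows that met the same minimum. The rule used position only, so that the methylation of the deserts was not used to choose them. They were compared with 5649 windows that lay wholly inside genes.

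Spermatogonia are the mitotic germ cells of the testis, and they carry the methylation pattern that was laid down in their fetal precursors, the prospermatogonia, after an earlier genome-wide erasure. DNMT3L is a catalytically inactive partner of the de novo DNA methyltransferases and is required for most of this new methylation in the male germline. PLD6 is a mitochondrial protein needed to make PIWI-interacting RNAs (piRNAs), small RNAs that direct cleavage of retrotransposon transcripts and, in the fetal male germline, methylation of some retrotransposon promoters. Gene deserts are usually poor in G and C and rich in old transposon insertions, and those next to genes for neural adhesion molecules are among the longest in mammalian genomes.

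Whole-genome bisulfite sequencing had been carried out by post-bisulfite adaptor tagging (PBAT) on spermatogonia of strain C57BL6/J at postnatal day 7, purified by fluorescence-activated sorting with an antibody to EpCAM, a surface protein of these germ cells. The genotypes were WT, *Pld6* KO and *Dnmt3l* KO (labelled Dnmt3L KO), with 1 library each analysed here. The study describes biological replicates, but the values used here come from 1 file per genotype, so that no replicate error could be given and the difference between a genotype and a library cannot be told apart. In the study heterozygous animals also counted as WT, so that the alleles behind the WT library are not known beyond its label.

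The 3 libraries held 43757722 (WT), 64076569 (*Pld6* KO) and 19289688 (*Dnmt3l* KO) calls. Exon 1 of *Pld6* (chr11:59787222-59787657) had 90 calls in WT, 40 in *Dnmt3l* KO and none in *Pld6* KO. The longest stretch of *Dnmt3l* without calls in *Dnmt3l* KO, chosen for that lack, spanned 53 CpGs (chr10:78050450-78054524) and had 88 calls in WT and 171 in *Pld6* KO. The start of *Kcnq1ot1*, an imprinted RNA whose promoter is unmethylated in male germ cells and methylated on 1 allele in somatic cells, had levels of 0.0780 (WT), 0.0700 (*Pld6* KO) and 0.0154 (*Dnmt3l* KO). The deserts had 1.24, 1.73 and 0.628 calls per CpG in the 3 libraries, against 2.0, 3.01 and 0.878 inside genes. Intervals given below are 95% intervals (Wilson for a level, Newcombe for a difference) and cover counting error only, as calls from 1 read are linked and the reads carried no molecular identifiers.

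The CpGs of the deserts are mostly isolated in A- and T-rich sequence. As examples, 121 bases around the CpG with the most calls in its least covered library are given for each of the 3 longest deserts. They run 5′ to 3′ on the plus strand of mm10, with every CpG in capitals.
chr4:29996785-29996905: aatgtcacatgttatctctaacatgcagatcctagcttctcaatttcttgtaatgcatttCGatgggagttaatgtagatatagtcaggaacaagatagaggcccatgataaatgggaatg
chr15:14678591-14678711: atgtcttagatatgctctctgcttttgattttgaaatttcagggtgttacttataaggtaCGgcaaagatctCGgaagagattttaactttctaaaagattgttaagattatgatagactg
chr14:83020718-83020838: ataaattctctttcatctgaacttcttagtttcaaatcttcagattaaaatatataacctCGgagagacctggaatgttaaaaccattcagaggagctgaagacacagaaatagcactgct
None of these CpGs is repeat-masked. Those of the chromosome 15 sequence lie within 35 bases of each other, so they are not isolated in the sense used below (no other within 35 bases). The CpG at base 61 of the chromosome 4 sequence was methylated in 5 of 7 WT calls, 9 of 10 *Pld6* KO calls and 1 of 7 *Dnmt3l* KO calls. That at base 61 of the chromosome 14 sequence was methylated in 7 of 7, 10 of 11 and 1 of 6 calls in the same order. In the chromosome 15 sequence the CpG at base 61 had 6 of 8, 5 of 9 and 0 of 5 calls methylated, and its neighbour at base 73 had 6 of 7, 3 of 4 and 0 of 2. These 4 sites were thus mostly methylated in WT and had at most 1 methylated call each in *Dnmt3l* KO.

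The deserts as a whole were well methylated in WT, slightly less so in *Pld6* KO, and kept a small share of that methylation in *Dnmt3l* KO. Mean window levels (fraction of calls that were methylated) were 0.712 ± 0.0869 for WT, 0.668 ± 0.0985 for *Pld6* KO and 0.142 ± 0.0496 for *Dnmt3l* KO (SD over 113 windows). WT windows ranged from 0.483 to 0.900 and *Dnmt3l* KO windows from 0.0474 to 0.270, so the ranges did not overlap. *Dnmt3l* KO was below WT in 100% of desert windows, and also in 100% of genic and of all autosomal windows. Pooled over the deserts, 67076 WT calls gave a level of 0.710 (0.706 to 0.713), 93284 *Pld6* KO calls gave 0.668 (0.665 to 0.671), and 33844 *Dnmt3l* KO calls gave 0.142 (0.138 to 0.146). The *Dnmt3l* KO mean was 20% of the WT mean in deserts, whereas it was 43.4% inside genes and 37.8% over all autosomal windows.

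The WT level exceeded the *Dnmt3l* KO level by at least 0.3 in 113 of 113 desert windows, but 90% of all autosomal windows did the same. A difference of at least 0.2 was found in 113 desert windows (99.3% of all windows) and one of at least 0.4 in 111 (98.2%, against 67.9%). Larger differences separated the classes. The difference was at least 0.5 in 100 desert windows (88.5%), against 41.6% of all windows and 36.7% of windows inside genes, and at least 0.6 in 36 desert windows (31.9%), against 13.5% and 9.61%. The mean difference was 0.570 ± 0.0617 in deserts and 0.456 ± 0.107 inside genes. All 12 deserts had a larger mean difference than the genic windows of their own chromosome.

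**Figure D1:**
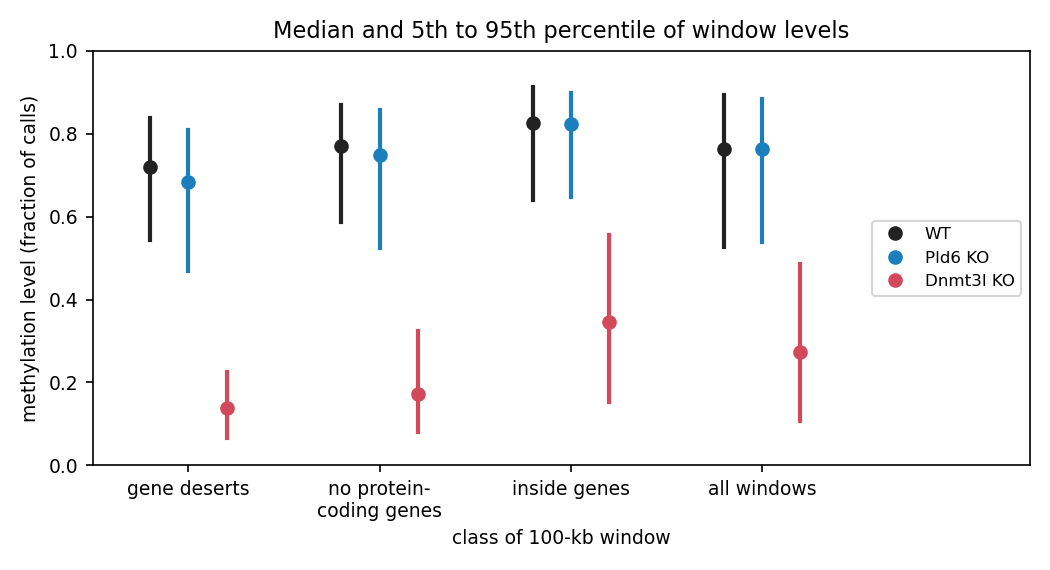
Methylation levels (vertical axis, fraction of calls) of 100-kb windows in 4 classes (horizontal axis: gene deserts, intervals without protein-coding genes, windows inside genes, all autosomal windows) for WT (black), *Pld6* KO (blue) and *Dnmt3l* KO (red), with points for medians and bars from the 5th to the 95th percentile. The *Dnmt3l* KO median was 0.139 in deserts and 0.346 inside genes.

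The level that remained in *Dnmt3l* KO set deserts apart from genes more clearly than the WT level did. The desert mean minus the genic mean was −0.0945 for WT (0.712 against 0.807), −0.137 for *Pld6* KO (0.668 against 0.805) and −0.208 for *Dnmt3l* KO (0.142 against 0.350). In *Dnmt3l* KO, 113 of 113 desert windows were below the genic median, and only 3.82% of genic windows were below the desert median. In WT, 105 of 113 desert windows were below the genic median. Within chromosomes, 12 of 12 deserts were below the genic mean in either mutant, and 11 of 12 in WT.

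Deserts also differed from genes in composition. Their GC content was 37.0% ± 1.22 against 41.7% ± 3.70 inside genes, they held 477 ± 93 CpGs per window against 832 ± 302, and 44.4% ± 7.30 of their bases were repeat-masked against 28.3% ± 9.40 (SD over windows). When 77 desert and 775 genic windows were compared within the same 1-point GC bins (36 to 38%), deserts were still lower, and the mean difference from genes was −0.0714 for WT, −0.107 for *Pld6* KO and −0.0830 for *Dnmt3l* KO. The larger WT-to-*Dnmt3l* KO difference of the deserts, 0.114 without matching, was only 0.0116 within GC bins and 0.0115 within bins of 50 CpGs per window. The excess of the WT-to-*Pld6* KO difference fell little, from 0.0429 to 0.0356 within GC bins and 0.0319 within CpG bins. Repeat content was not matched, and deserts were still more repeat-masked than genic windows, by 9.27 points within GC bins and 7.11 within CpG bins. The part of repeats in the *Pld6* KO excess was not tested. With intervals bounded by protein-coding genes only, described below, the excess for *Dnmt3l* KO within GC bins was larger (0.0468).

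Across the 113 desert windows, which share libraries and differ little in base composition, GC content was hardly related to the WT-to-*Dnmt3l* KO difference (Pearson r = 0.103, Spearman rho = 0.0591), while r was −0.626 over the 5649 genic windows. The repeat-masked share was related to the WT-to-*Pld6* KO difference (r = 0.375, rho = 0.394 over 113 windows). These correlations are descriptions of windows from the same 3 libraries.

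Each desert was next described by its own values. Of the 12 deserts, 10 were bounded on both sides by pseudogenes or noncoding RNA genes, and 2 reached a protein-coding gene, *Zfp804a* or *Isx*. The last 2 are named here by the gene they reach, and the others by the nearest protein-coding gene on each side. In 7 deserts at least 1 of these genes was on a list of neural adhesion and guidance genes (symbols starting with Cdh, Pcdh, Epha, Slit and others), 9 genes in all, and *Dsc3* was not on that list. Among the 246 intervals bounded by protein-coding genes only, described below, 21.1% had a gene of that list at an edge and 5.28% a developmental regulator (Sox, Hox, Pax, Fgf and similar families), which no desert had as its nearest gene. The nearest gene was often far from the desert's edge, with pseudogenes or noncoding genes between. *Epha7* lay 228.8 kb away, *Slit2* 346.8 kb, *Cdh2* 1174 kb, *Cdh6* 1290 kb and *Cdh9* 950.4 kb, and the protocadherin genes *Pcdh9*, *Pcdh17*, *Pcdh10* and *Pcdh20* lay 645.2, 1038, 2128 and 2729 kb away. Levels below are pooled over a desert, in the order WT, *Pld6* KO, *Dnmt3l* KO.

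The longest desert, of 1.47 Mb and 12 windows, lay between *Epha7*, an ephrin receptor of axon guidance, and *Map3k7*, a kinase of inflammatory signalling (chr4:29196279-30664595), and had levels of 0.785, 0.749 and 0.178. The desert between *Lcorl* and *Slit2*, a secreted axon guidance ligand (chr5:46415439-47634491), had 0.827, 0.794 and 0.215. These were the highest levels of the 12, and its WT mean over windows (0.828) was the only one above the genic mean of its chromosome (0.798). The desert between *Cdh2*, encoding N-cadherin, and *Dsc3*, a desmosomal cadherin (chr18:17983564-19167760), had 0.733, 0.690 and 0.144. The desert between the cadherin genes *Cdh6* and *Cdh9* (chr15:14466670-15778113) had 0.656, 0.646 and 0.128. With *Epha7* and *Slit2* near the top and *Cdh6* and *Cdh9* near the bottom of the WT order, deserts whose nearest genes were on the adhesion and guidance list did not share 1 level.

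The other deserts with a nearest gene on that list had protocadherin genes, which encode adhesion molecules of neurons. That between *D3Ertd751e* and *Pcdh10* (chr3:41978126-43250386) had 0.645, 0.631 and 0.114. Its windows spread most widely of the 12, from 0.483 to 0.768 in WT (SD 0.105). Both chromosome 14 deserts belong here. The desert between *Olfm4* and *Pcdh17* (chr14:82122227-83405630) had 0.719, 0.662 and 0.131, and that between *Pcdh20* and *Pcdh9* (chr14:91200120-92368499) had 0.660, 0.604 and 0.102, the lowest *Dnmt3l* KO level of the 12. The pair differed in WT by more than their counting intervals (0.707 to 0.731 and 0.646 to 0.673).

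The 5 deserts without a nearest gene on the list covered nearly the same range. The desert between *Ptprd*, a receptor tyrosine phosphatase, and *Tyrp1*, an enzyme of melanin synthesis (chr4:79328497-80509337), had 0.624, 0.523 and 0.107. It was the lowest of the 12 in WT and in *Pld6* KO, although it shares its chromosome with the *Epha7* desert. The desert between *Rgs18*, a regulator of G-protein signalling, and *Brinp3* (chr1:145291481-146308480) had 0.642, 0.568 and 0.106, and that between *Kcnt2*, a potassium channel gene, and *Cdc73* (chr1:141298207-142455039) had 0.693, 0.665 and 0.134. The desert that reaches *Zfp804a*, a zinc finger gene (chr2:80984190-82050128) had 0.731, 0.708 and 0.150. The desert that reaches *Isx*, an intestinal homeobox gene (chr8:73872613-74873173), had 0.786, 0.725 and 0.182. The last was the shortest (1000.6 kb), had the highest GC content (39.9%) and had the most even windows in WT (SD 0.0175).

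**Figure D2:**
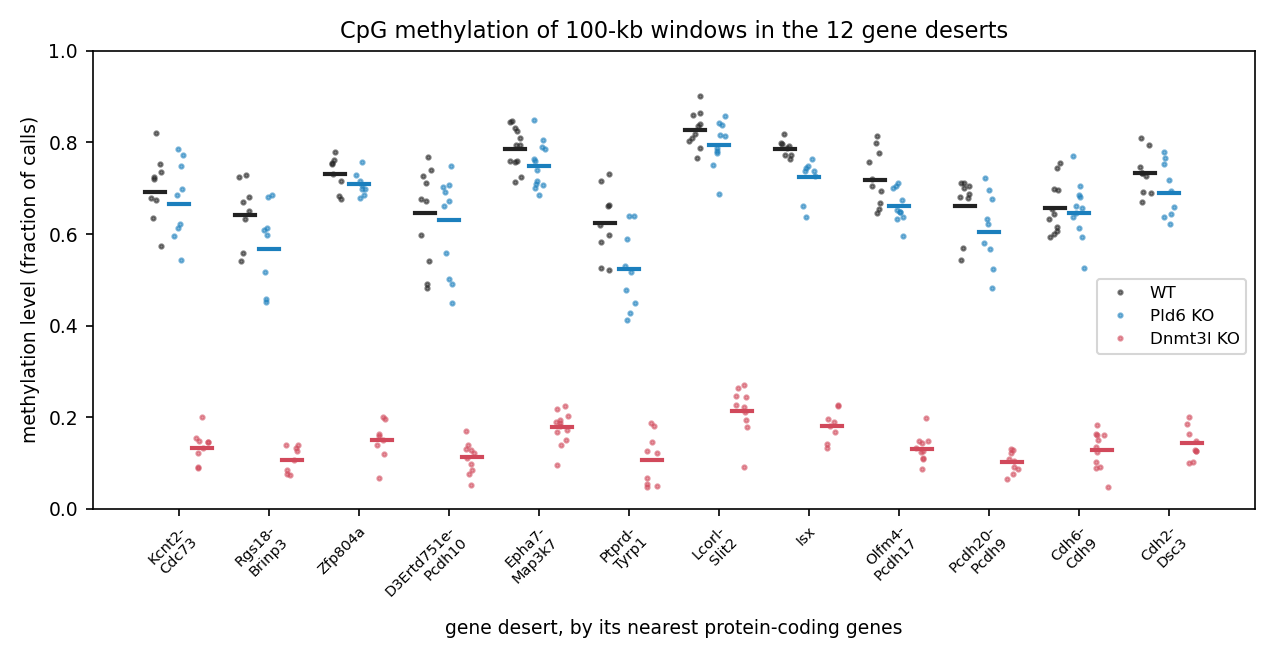
Methylation level (vertical axis, fraction of calls) of each 100-kb window (points) and of each desert pooled (bars) in WT (black), *Pld6* KO (blue) and *Dnmt3l* KO (red), with the 12 deserts on the horizontal axis by their nearest protein-coding genes, or by the gene a desert reaches. The highest *Dnmt3l* KO window is at 0.270 and the lowest WT window at 0.483.

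Deserts that were high in WT were also high in the mutants. Over the 12 desert means, WT and *Pld6* KO levels had r = 0.937 (rho = 0.951) and WT and *Dnmt3l* KO levels r = 0.955 (rho = 0.902), given as descriptions with no test. Windows of the same desert also moved together once the desert mean had been removed (r = 0.750 between WT and *Pld6* KO and 0.488 between WT and *Dnmt3l* KO, 113 windows). The SD of windows within a desert beyond counting error was 0.0587 for WT, 0.0671 for *Pld6* KO and 0.0327 for *Dnmt3l* KO. The SD between desert means was similar, 0.0661, 0.0764 and 0.0346. In *Dnmt3l* KO, the 239 merged gene spans of at least 5 windows differed more from one another (SD between means 0.102). Genic windows also had a higher mean level there, 0.350 against 0.142, and a wider range of GC content. In WT and *Pld6* KO the SD between means of gene spans was 0.0626 and 0.0652, not above that of the deserts.

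The decrease in *Pld6* KO was small over whole windows but went in the same direction in all 12 deserts. The pooled difference between WT and *Pld6* KO was 0.0418 (0.0372 to 0.0464), and the mean over windows was 0.0442 ± 0.0514, against 0.00131 ± 0.0332 inside genes. *Pld6* KO was below WT in 89 of 113 desert windows (78.8%), in 52.5% of genic windows and in 46.6% of all windows. The interval of the difference lay above 0 in 10 of 12 deserts. The exceptions were the *Pcdh10* desert (0.0141, −0.00104 to 0.0293) and the *Cdh6*-*Cdh9* desert (0.00997, −0.00514 to 0.0250). The largest difference was that of the *Ptprd*-*Tyrp1* desert, 0.101 (0.0837 to 0.118), where 9 of 9 windows were lower, followed by the *Rgs18*-*Brinp3* desert, 0.0739 (0.0553 to 0.0924), where 8 of 8 were lower. With intervals bounded by protein-coding genes only, the mean difference over windows was 0.0277, but the pooled difference was −0.0130 (−0.0135 to −0.0124). In that set the window with the most calls held 2.11e+06 of 5022476 WT calls. With sites of over 1000 calls left out, repeat-masked CpGs of that set differed by 0.0756 and unmasked ones by −0.00293. Pooled differences were also below 0 inside genes (−0.00479) and over all autosomal windows (−0.0200).

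By a threshold of 0.1, 15 of 113 desert windows (13.3%) were lower in *Pld6* KO, against 2.8% of all windows and 1.13% of genic windows. None of the 113 was higher by 0.1, against 0.418% of all windows. A Fisher exact test on the calls of each window, which compares these 2 libraries and not the genotypes, called 39 desert windows lower in *Pld6* KO (34.5%, against 14.4% of all windows) and none higher (against 22.5%) at a Benjamini-Hochberg adjusted threshold of 0.05 over all windows.

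Inside the deserts this difference was concentrated at clustered CpGs in repeats. For 61.0% of desert CpGs no other CpG lay within 35 bases, and the levels of these sites were 0.722 in WT and 0.708 in *Pld6* KO, a difference of 0.0146. With 1, 2, and 3 or more CpGs within 35 bases the difference was 0.0389, 0.116 and 0.239. In the last class WT had a level of 0.676, *Pld6* KO of 0.437 and *Dnmt3l* KO of 0.150. Genic CpGs of the same class, masked and unmasked together, went the other way (0.516 in WT and 0.583 in *Pld6* KO). Genic repeat-masked CpGs with at least 1 neighbour within 35 bases were lower in *Pld6* KO (0.830 in WT, 0.775 in *Pld6* KO). Unmasked genic ones with a neighbour were higher (0.764 and 0.787). In intervals bounded by protein-coding genes only, described below, masked CpGs with a neighbour differed by 0.134. These values by CpG feature leave out sites with over 1000 calls. Repeat-masked desert CpGs had 0.683 in WT and 0.595 in *Pld6* KO, and unmasked ones 0.725 and 0.713. Both features counted, since masked CpGs with a close neighbour differed by 0.156 (0.680 against 0.524), masked ones without by 0.0335, unmasked ones with a neighbour by 0.0250 and unmasked ones without by 0.00482.

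To locate these sites, the 113 windows were divided into 11300 tiles of 1 kb. Tiles of 10 or more CpGs made up 7.17% of them, and there the pooled level was 0.599 in WT and 0.446 in *Pld6* KO, a difference of 0.152 (0.141 to 0.163). In the remaining tiles it was 0.736 and 0.722, a difference of 0.0134 (0.00849 to 0.0183), while genic tiles of under 10 CpGs differed by 0.00584 (0.00539 to 0.00628). The difference was larger in the CpG-rich tiles than in the rest in 12 of 12 deserts. Without the CpG-rich tiles, the interval lay above 0 in 6 deserts, and the *Ptprd*-*Tyrp1* desert still had the largest difference (0.0684, 0.0491 to 0.0876). In the *Cdh6*-*Cdh9* desert the difference went the other way, with *Pld6* KO above WT (−0.0283, −0.0455 to −0.0112). The *Zfp804a* (−0.00558), *Olfm4*-*Pcdh17* (−0.000664) and *Pcdh10* (−0.000641) deserts had differences below 0 whose intervals included 0.

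**Figure D3:**
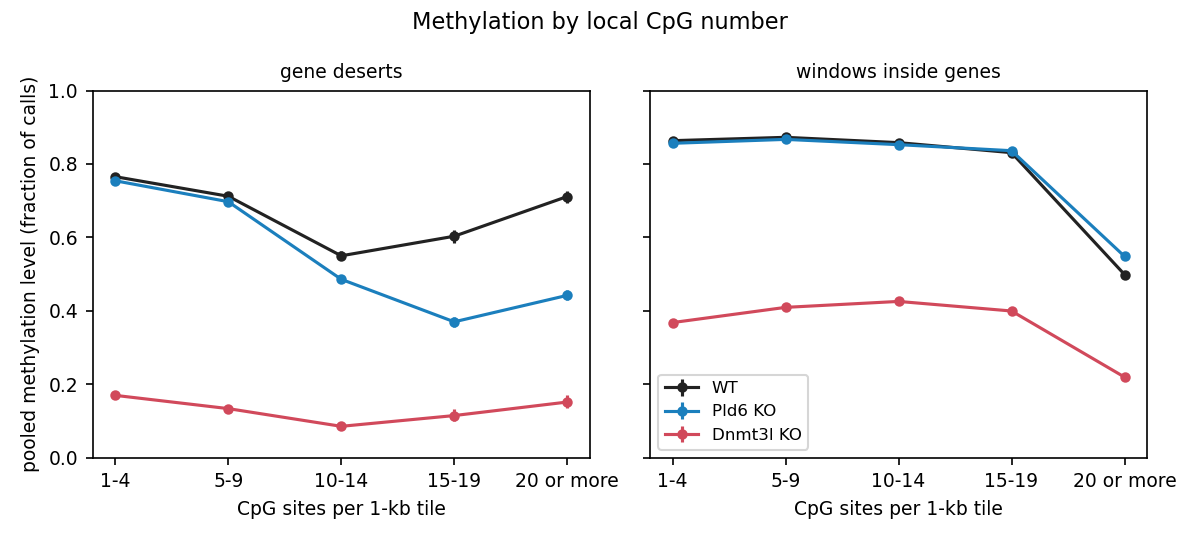
Pooled methylation level (vertical axis, fraction of calls, with 95% Wilson intervals) of 1-kb tiles by their number of CpGs (horizontal axis) in gene deserts (left) and inside genes (right), for WT (black), *Pld6* KO (blue) and *Dnmt3l* KO (red). In deserts, tiles of 15 to 19 CpGs had 0.603 in WT and 0.370 in *Pld6* KO, and tiles of 20 or more had 0.711 and 0.442.

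Among 1816 desert tiles with at least 10 calls in both libraries, 230 (12.7%, 11.2 to 14.3) were lower in *Pld6* KO by at least 0.3 and 88 (4.85%) were higher by as much. Only these 1816 of the 11300 desert tiles met the minimum, against 1242267 of 2365900 autosomal tiles, so the shares describe the better covered tiles. With a minimum of 20 calls the lower share of desert tiles was 19.6%, and the shares of other tiles were not computed at that minimum. At the minimum of 10 calls, the lower and higher shares were 2.13% and 1.78% over all autosomal tiles, and 1.44% and 1.43% over genic tiles. Tiles with few calls pass such a threshold more easily in both directions, and the deserts had fewer calls per CpG. Lower tiles outnumbered higher ones in 12 of 12 deserts and made up between 7.85% and 22.6% of each desert's tiles with at least 10 calls in both libraries. They were CpG-rich and repetitive, with a mean of 13.2 CpGs and 66.2% masked bases, against 8.49 CpGs and 45.4% for the desert tiles with calls. Of the desert tiles that were mostly repeat-masked, 22.6% were lower, against 6.05% of the others. The contrast was not particular to deserts. Over all autosomal tiles the shares were 9.08% of the mostly masked and 1.26% of the others, and genic tiles differed in the same direction.

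The study's bisulfite PCR amplicons of retrotransposon promoters were then searched for in the deserts (matches of 90% identity or more that covered 90% or more of an amplicon). The L1Md_A amplicon, from the promoter of an active LINE-1 family, matched at 14 places in 8 deserts. Within 1 kb of these copies WT had a level of 0.828 (0.787 to 0.862, 383 calls), *Pld6* KO of 0.176 (0.147 to 0.208, 603 calls) and *Dnmt3l* KO of 0.0492 (0.0261 to 0.0908, 183 calls). All 11 copies with at least 5 calls in WT and in *Pld6* KO were lower in *Pld6* KO, 10 of them by at least 0.3, and 9 of the 11 had no methylated call in *Dnmt3l* KO, on 1 to 32 calls each. Copies below that minimum went both ways. Those at chr8:74745992-74746811 (3 of 6 calls methylated in WT, 4 of 4 in *Pld6* KO) and chr15:14733134-14733343 (2 of 3, 1 of 1) were higher in *Pld6* KO. That at chr15:15646377-15646787 (3 of 3, 5 of 11) was lower. With each copy left out in turn, the difference between WT and *Pld6* KO stayed between 0.623 and 0.717. The *Dnmt3l* KO level depended on 1 copy of the *Cdh6*-*Cdh9* desert (chr15:14733134-14733343), methylated in 5 of 8 calls, and was 0.0229 without it. Reads had to map uniquely, so the copies seen are those that differ enough from others of their family.

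The copy with the most calls lies in the *Pcdh20*-*Pcdh9* desert. For contrast with the sparse CpGs above, 1 of its 2 promoter matches is shown here in the same notation (plus strand, 210 bases, 91.2% identity to the amplicon).
chr14:91414156-91414365: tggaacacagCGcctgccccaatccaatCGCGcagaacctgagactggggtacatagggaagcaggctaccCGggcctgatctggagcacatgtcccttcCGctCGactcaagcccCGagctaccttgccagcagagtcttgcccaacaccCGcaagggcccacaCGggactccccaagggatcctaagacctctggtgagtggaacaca
This stretch holds 9 CpGs. They had 4 of 10 calls methylated in WT, 3 of 29 in *Pld6* KO and 0 of 6 in *Dnmt3l* KO, and with 1 kb on either side of the copy 45 of 59, 14 of 100 and 0 of 22. In the *Olfm4*-*Pcdh17* desert a copy of 4 matches (chr14:82364452-82365292) had 50 of 57 calls methylated in WT, 0 of 61 in *Pld6* KO, which allows up to 4.92%, and 0 of 22 in *Dnmt3l* KO. In the *Zfp804a* desert a copy of 3 matches (chr2:81157289-81157900) had 40 of 42, 14 of 90 and 0 of 14. The pattern was not uniform. Another copy of the *Pcdh20*-*Pcdh9* desert (chr14:92040184-92040400) had 14 of 16 and 13 of 40, with 3 of 7 in *Dnmt3l* KO.

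**Figure D4:**
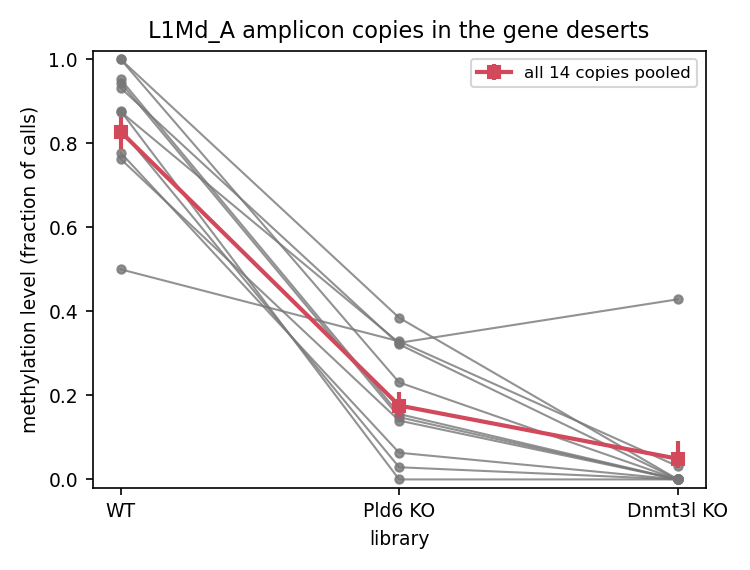
Methylation level (vertical axis, fraction of calls) in the 3 libraries (horizontal axis) within 1 kb of each of the 11 L1Md_A amplicon copies in deserts with at least 5 calls in WT and *Pld6* KO (grey lines), and of all 14 copies pooled, with 95% Wilson intervals (red). All 11 grey lines fall from WT to *Pld6* KO, and copies with fewer calls, which went both ways, have no line.

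The other retrotransposon amplicons had smaller differences between WT and *Pld6* KO, or few calls. IAPLTR1_MM, the long terminal repeat of an intracisternal A particle, matched at 13 places and had 0.766 (0.693 to 0.826) for WT, 0.560 (0.498 to 0.619) for *Pld6* KO and 0.398 (0.315 to 0.488) for *Dnmt3l* KO. Without the copy of the *Ptprd*-*Tyrp1* desert at chr4:79560909-79561171, methylated in 26 of 30 *Dnmt3l* KO calls, the *Dnmt3l* KO level was 0.239, and without that of the *Olfm4*-*Pcdh17* desert at chr14:82700908-82701170, the *Pld6* KO level was 0.672 against 0.758 in WT. MT2-MERVL, the promoter repeat of an endogenous retrovirus, matched at 9 places and had 0.815 (0.692 to 0.896), 0.825 (0.714 to 0.900) and 0.10 (0.0279 to 0.301) on 54, 63 and 20 calls, and both methylated *Dnmt3l* KO calls were at 1 copy. RLTRETN_Mm, the repeat of the early transposon family, matched at 2 places in the *Cdh6*-*Cdh9* desert, with 0.759, 0.560 and 0.111. No match was found for the other 3 amplicons. Away from the L1Md_A copies, the deserts as a whole differed between WT and *Pld6* KO by 0.0379 (0.0333 to 0.0425), close to 0.0418 with them. The tiles at these copies were 0.416% of desert tiles. L1Md_A was the only LINE-1 amplicon among the 7 searched, so the part of other LINE-1 copies was not tested.

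The bases next to a CpG were related to what remained in *Dnmt3l* KO. Among isolated desert CpGs (none other within 35 bases), those flanked by A or T on both sides had a *Dnmt3l* KO level of 0.125, those flanked so on 1 side 0.154, and those flanked by C or G on both sides 0.173, while their WT levels were 0.716, 0.729 and 0.719. Isolated genic CpGs had the same order at higher levels, 0.336, 0.414 and 0.466. The *Dnmt3l* KO desert level was also lower at repeat-masked (0.113) than at unmasked CpGs (0.160). The WT level at desert CpGs fell with the number of calls at the site, from 0.740 at 1 call to 0.654 at 7 or more, whereas that of *Pld6* KO stayed between 0.663 and 0.670. The part of read depth in the differences above was not tested beyond the alternatives listed at the end.

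The low *Dnmt3l* KO level began outside the annotated edge. Across the 24 desert boundaries, the pooled *Dnmt3l* KO level was 0.199 to 0.205 at distances of 200 to 500 kb outside, 0.171 at 100 to 200 kb outside, 0.149 in the last 100 kb outside and 0.149 in the first 100 kb inside. From there to 500 kb inside it was between 0.137 and 0.155. The WT level showed no step, with 0.693 to 0.732 outside and 0.698 to 0.722 inside. The difference between WT and *Pld6* KO was 0.00653 to 0.0160 at 200 to 500 kb outside and 0.0335 at 100 to 200 kb outside. It was 0.0436 in the last 100 kb outside and 0.0263 to 0.0530 inside, so there was no step at the edge. Windows at 100 to 300, 300 to 500 and over 500 kb from an edge (48, 48 and 17 windows) had *Dnmt3l* KO means of 0.145 ± 0.0539, 0.140 ± 0.0482 and 0.141 ± 0.0427, so that within these deserts the means differed by less than the SD over windows.

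**Figure D5:**
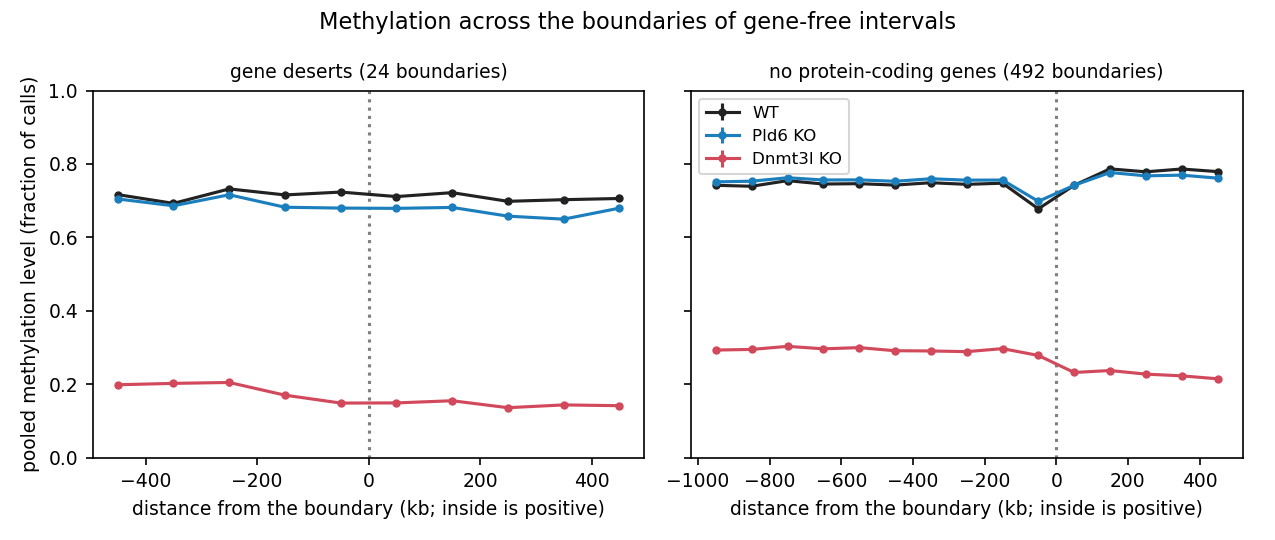
Pooled methylation level (vertical axis, fraction of calls, with 95% Wilson intervals) by distance from the boundary in kb (horizontal axis, inside positive) for the 24 boundaries of gene deserts (left) and the 492 boundaries of intervals without protein-coding genes (right), in WT (black), *Pld6* KO (blue) and *Dnmt3l* KO (red). The *Dnmt3l* KO level at 400 to 500 kb inside was 0.142 and 0.215.

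Counting only protein-coding genes as boundaries, 246 intervals with 3844 windows were obtained, among them the 12 intervals that hold the deserts. Their mean levels were 0.756 ± 0.0876, 0.728 ± 0.103 and 0.184 ± 0.0750, between those of the deserts and of the genic windows. They were below the genic windows on all 19 autosomes in both mutants and on 17 in WT. The *Dnmt3l* KO level fell from 0.223 in intervals of 1 to 1.5 Mb (124 intervals) to 0.153 in those of 3 Mb or more (27 intervals), while GC content fell from 39.2 to 37.2%. At these 492 boundaries there was a step between the last 100 kb outside (0.279) and the first 100 kb inside (0.232) in *Dnmt3l* KO, and *Pld6* KO was below WT only beyond the first 100 kb inside. In this set the *Dnmt3l* KO mean fell with distance from the edge, from 0.212 at 100 to 300 kb and 0.201 at 300 to 500 kb (979 windows each) to 0.170 at 500 to 1000 kb (1265 windows) and 0.140 beyond 1000 kb (621 windows), while GC content fell from 39.1 to 36.9%.

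This wider set was also grouped by neighbouring genes. The 52 intervals bounded by neural adhesion and guidance genes had median levels of 0.731, 0.701 and 0.144, and the 13 bounded by developmental regulators had 0.801, 0.790 and 0.251, against 0.784, 0.763 and 0.189 for all 246. The median GC content of these groups was 37.2%, 41.0% and 38.0%, and the part of base composition in this difference was not tested.

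The intervals nearest to the 1-Mb limit had these values. Just inside it, the *Isx* and *Rgs18*-*Brinp3* deserts (1000.6 and 1017.0 kb) had the values given above. Just outside it, the interval next to *Cntnap2*, a neurexin family gene (chr6:44083356-45060060, 976.7 kb), had 0.713, 0.669 and 0.108, and an interval on chromosome 3 (chr3:43764755-44725163, 960.4 kb) had 0.569, 0.493 and 0.0902.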

How the data were processed

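PBAT libraries of sorted P7 spermatogonia (WT, *Pld6* KO, *Dnmt3l* KO) were analysed, 1 per genotype. Per the study's methods and the labels, the authors had trimmed single-end reads, mapped them to mm10 with Bismark (version not given in the sources used here), kept unique matches, and deposited for each CpG its methylated count, unmethylated count and methylated fraction. Removal of PCR duplicates was not given in the sources used here. No site's fraction departed from its counts by over 0.001, and every autosomal site lay at a CG of the reference. Unique mapping removes reads from young, near-identical repeats.

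Genes and soft-masked repeats came from RefSeq (GRCm38.p6). Runs of at least 1 kb of unknown bases were removed from interval ends, windows with over 1% unknown bases were dropped, and a level was methylated calls over all calls. Genic windows were tiled along merged gene spans. With 1 library per genotype no test between genotypes was made. Intervals and the Fisher exact test were computed with statsmodels 0.14.6 and SciPy 1.17.1 (Python 3.11.15, NumPy 2.4.6, pandas 2.3.3), amplicons were searched with BLAST 2.17.0, and the procedure was tested on simulated data. Amplicon sequences came from the study's supplement, with converted bases restored. The deserts named were to be the 5 longest and, among those of at least 10 windows, those with extreme differences or low WT levels. As only 5 deserts had 10 windows, all 12 are described. Sites shown were chosen by their number of calls. The deserts, gene lists and comparisons were chosen with earlier results of these data known, and the 1-kb tiles, the amplicon search, and 4 of the alternatives were added after the desert values had been seen.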

Additional observations from a re-analysis of the deposited data

How the results depend on the processing

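No paired analysis was possible because each genotype had 1 library and the labels give no shared replicate numbers. No alternative reversed the direction of a recomputed value. Levels and differences were recomputed as means over windows, and the pooled WT-to-*Pld6* KO difference was not among these values. It was −0.0130 with intervals bounded by protein-coding genes only, against 0.0418 in deserts. In the former set 1 window held 2.11e+06 of 5022476 WT calls, and its part in the change of sign was not tested. Of 141 values recomputed under alternatives, 56 moved by more than the tolerance set for them and 85 did not. The tolerance was the counting interval for levels, differences, SDs and the share of 1-kb tiles. It was the SD over windows for GC content and a factor of 1.5 for the other shares and counts. Some of the 85 could not have moved. Leaving out the first and last 10 Mb of autosomes kept all 113 desert windows. The GC content of desert windows was fixed where only the calls used changed. The cause of each move was not tested. Where a setting gives several values, they stand in the order WT, *Pld6* KO, *Dnmt3l* KO.

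Bounding intervals by protein-coding genes only gave mean levels of 0.756, 0.728 and 0.184, a WT-to-*Pld6* KO difference of 0.0277, desert minus genic levels of −0.0586, −0.0857 and −0.178, excess differences within GC bins of 0.0468 (*Dnmt3l* KO) and 0.0223 (*Pld6* KO), and an SD beyond counting error of 0.0414 in *Dnmt3l* KO. Curated genes only gave 0.746, 0.715 and 0.172, a WT-to-*Pld6* KO difference of 0.0310, desert minus genic levels of −0.0658, −0.0960 and −0.187, excesses of 0.0417 and 0.0247, and an SD of 0.0395 in *Dnmt3l* KO. Trimming 500 kb at each end left 17 windows with levels of 0.731 (WT) and 0.686 (*Pld6* KO), a WT-to-*Dnmt3l* KO difference of 0.590, desert minus genic levels of −0.0759 (WT) and −0.119 (*Pld6* KO), and SDs of 0.0389, 0.0720 and 0.0409.

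Windows of 50 kb gave desert minus genic levels of −0.134 (*Pld6* KO) and −0.216 (*Dnmt3l* KO), an excess of 0.0221 for *Dnmt3l* KO, and SDs of 0.0683, 0.0813 and 0.0441. Averaging site levels gave 0.725 in WT, differences of 0.579 (*Dnmt3l* KO) and 0.0563 (*Pld6* KO), desert minus genic levels of −0.0892, −0.131 and −0.215, an excess of 0.0187 for *Dnmt3l* KO, and an SD of 0.0523 in WT. Genic windows inside 1 protein-coding gene gave desert minus genic levels of −0.100, −0.143 and −0.216. Sites with calls in all 3 libraries gave 0.704 (WT) and 0.665 (*Pld6* KO), differences of 0.560 (*Dnmt3l* KO) and 0.0392 (*Pld6* KO), desert minus genic levels of −0.101 (WT) and −0.143 (*Pld6* KO), and SDs of 0.0660, 0.0776 and 0.0376. The Fisher exact test called 39 windows lower in *Pld6* KO in place of 15, and a minimum of 20 calls per tile gave 19.6% of tiles lower in *Pld6* KO in place of 12.7%.

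Intervals of at least 2 Mb, a minimum of 500 calls per window, and the values within GC bins after the 500-kb trim could not be computed, as no interval, window or bin remained. Depth limits the smaller values: the *Dnmt3l* KO library had under 1 call per desert CpG, and most single copies of a retrotransposon rested on few calls.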
